A study of Mus musculus with 6 samples.

Results

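The 8 genes described here, *Slc1a6*, *Fabp7*, *Nos1*, *Ptpn5*, *Homer2*, *Kirrel3*, *Flrt2* and *Cdh13*, are best known from neurons or glia and were selected on their read counts, which were far higher in γδ thymocytes of *Rag1Cre-Nfatc1fl/fl* mice than in those of *Nfatc1fl/fl* mice. They are 8 of 41195 genes in the deposited tables and were found by their gene symbols. The difference between the genotypes is what chose them, so for them it is given below as a description, with no test. RNA sequencing (RNA-seq) was done on γδ thymocytes, T cells of the thymus with a γδ T cell receptor, enriched with a magnetic TCRγ/δ kit. In 3 libraries labelled *Rag1Cre-Nfatc1fl/fl* (KO) Cre recombinase, expressed from *Rag1* in immature thymocytes, removes the loxP-flanked exon 3 of both *Nfatc1* alleles, while 3 libraries labelled *Nfatc1fl/fl* (WT) carry the same floxed alleles without Cre. Per the methods of the study the mice were 4 to 6 weeks old, on a C57/B6 background and matched for sex and age. The comparison addresses how loss of the transcription factor NFATc1 in early thymocytes alters the RNA of γδ thymocytes.

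The libraries held 20734771 to 22638531 gene reads each. *Nfatc1* itself had 371 ± 63.8 CPM (reads per 1000000 gene reads, after scaling for library composition) in KO libraries and 203 ± 5.75 CPM in WT libraries (SD, n = 3 each). These counts cover the whole gene and not the deleted exon on its own, and so are no check of the deletion or of the labels. No 2 libraries of a genotype were alike within sampling noise. KO replicate 3 stood apart from KO replicates 1 and 2 on the second principal component, and the summed CPM of 14 macrophage and dendritic cell markers was 293 in it, against 89.3 and 58.3 in the other KO libraries and 97.2, 33.4 and 24.1 in the WT libraries. Whether each library had its own mouse is not stated in the labels, so the p-values below reflect the spread among these libraries alone, which could be technical.

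In the nervous system these genes have different roles, several of them at synapses. *Slc1a6* encodes EAAT4, a transporter that clears glutamate from synapses of Purkinje cells, *Fabp7* a fatty acid binding protein of radial glia and astrocytes, *Nos1* the neuronal nitric oxide synthase, and *Ptpn5* the striatum-enriched phosphatase STEP. *Homer2* encodes a scaffold that links glutamate receptors to calcium stores, and in T cells Homer2 and Homer3 are also known to bind NFAT proteins. *Kirrel3*, *Flrt2* and *Cdh13* encode cell surface proteins for adhesion and guidance.

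Sequences upstream of the start sites are shown for *Slc1a6*, *Fabp7* and *Flrt2*, the genes with the fewest WT reads, and for *Nos1*, the gene with the most KO reads. Each is the run of 250 bases before a RefSeq start in the build GRCm38.p6, printed in the direction of transcription, with the core letters of an NFAT site (GGAAA, or TTTCC where the site lies on the other strand) in capitals. The start of *Nos1* lies 85.8 kb inside the gene as the deposited tables bound it, so this window precedes one of its inner starts.
*Slc1a6* (chr10:78780246-78780495, plus strand): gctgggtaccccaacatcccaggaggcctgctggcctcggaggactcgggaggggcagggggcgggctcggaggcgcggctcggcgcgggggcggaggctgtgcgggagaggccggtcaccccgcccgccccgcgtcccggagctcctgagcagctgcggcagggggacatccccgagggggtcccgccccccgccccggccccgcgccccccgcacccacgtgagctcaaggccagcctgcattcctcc
*Fabp7* (chr10:57784673-57784922, plus strand): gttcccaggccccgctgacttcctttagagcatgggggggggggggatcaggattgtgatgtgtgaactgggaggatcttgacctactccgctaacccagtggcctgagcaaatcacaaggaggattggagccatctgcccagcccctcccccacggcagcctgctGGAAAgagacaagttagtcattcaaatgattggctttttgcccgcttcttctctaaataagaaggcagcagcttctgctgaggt
*Flrt2* (chr12:95691976-95692225, plus strand): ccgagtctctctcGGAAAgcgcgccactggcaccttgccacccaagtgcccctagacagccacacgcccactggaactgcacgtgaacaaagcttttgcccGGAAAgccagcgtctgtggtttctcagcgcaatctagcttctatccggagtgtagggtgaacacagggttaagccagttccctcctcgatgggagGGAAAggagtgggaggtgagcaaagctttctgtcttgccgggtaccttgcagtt
*Nos1* (chr5:117866589-117866838, plus strand): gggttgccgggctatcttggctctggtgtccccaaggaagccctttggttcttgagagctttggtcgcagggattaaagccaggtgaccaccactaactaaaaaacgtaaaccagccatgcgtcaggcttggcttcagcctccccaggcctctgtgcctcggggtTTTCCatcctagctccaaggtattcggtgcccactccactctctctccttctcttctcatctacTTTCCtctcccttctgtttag
The window of *Slc1a6* is 78.8% G and C with 26 CpG dinucleotides and holds no NFAT core, that of *Fabp7* is 54.8% G and C with 4 CpG and holds 1, that of *Flrt2* is 57.2% G and C with 12 CpG and holds 3, and that of *Nos1* is 54.0% G and C with 6 CpG and holds 2. Over 32851 windows of the same length the median was 52.4% G and C with 6 CpG.

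RefSeq gave 8 starts for 6 of the 8 genes, including 2 each for *Ptpn5* and *Homer2*, and no entry matched *Kirrel3* or *Cdh13*. GGAAA was present on either strand in 5 of these 8 windows, in all 6 genes but *Slc1a6*, and in 55.6% of all windows. The E-box letters CANNTG were present in 6 windows and in 66.2% of all windows, and the RUNX letters TGTGGT in 3 windows, of *Ptpn5*, *Homer2* and *Flrt2*, and in 14.0% of all windows. *Flrt2* alone held the EGR letters GTGGGCG, present in 7.02% of all windows, and *Homer2* alone held TATAAA, present in 12.4%. The factor REST holds many neuronal genes silent outside the nervous system. One arm of its element, GGACAGC, was present at the inner start of *Homer2* and in 5.28% of all windows, and the other arm, CAGCACC, was in no window of the 8 and in 5.73% of all. The AP-1 letters TGANTCA and the GATA letters AGATAA were in none of the 8 windows, against 6.75% and 9.99% of all. Both strands were searched and matches may overlap, as GGACAGC and CAGCTG do in *Homer2*. A match says only that the letters are there.

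Of the transporter and the lipid carrier, hardly any reads were found in WT libraries. *Slc1a6* (ENSMUSG00000005357, GRCm38 chr10:78780496-78814765, plus strand) had 204, 257 and 306 reads in KO replicates 1, 2 and 3, against 0, 1 and 0 reads in WT replicates 1, 2 and 3. It averaged 12.4 ± 3.45 CPM in KO libraries and 0.0146 ± 0.0254 CPM in WT libraries. KO replicate 3 was the highest and KO replicate 1 the lowest, and the spread between KO libraries (27.8% of the mean) was the widest of the 8 genes. Because WT libraries held 1 read in all, the ratio of reads, 837, has an exact 95% interval from 150 to 33114, which covers counting error only.

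*Fabp7* (ENSMUSG00000019874, GRCm38 chr10:57784881-57788450, plus strand) had 559, 517 and 357 reads in KO libraries, against 4, 4 and 0 reads in WT libraries. That is 22.7 ± 3.48 CPM in KO libraries and 0.116 ± 0.1004 CPM in WT libraries, a ratio of reads of 196 with a 95% interval of 99.0 to 454. Here KO replicate 3 was the lowest, opposite to *Slc1a6*, which lies on the same chromosome. No KO library came near a WT library in either gene.

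The enzymes and the scaffold were low but present in WT libraries. *Nos1* (ENSMUSG00000029361, GRCm38 chr5:117781032-117958840, plus strand) had 1497, 2190 and 1471 reads in KO libraries, against 68, 85 and 44 in WT libraries, or 82.0 ± 16.0 CPM in KO libraries and 2.87 ± 0.890 CPM in WT libraries, with a log2 fold change of 4.83. *Ptpn5* (ENSMUSG00000030854, GRCm38 chr7:47077795-47133684, minus strand) had 936, 950 and 722 reads in KO libraries, against 33, 42 and 28 in WT libraries, or 41.4 ± 2.89 CPM in KO libraries and 1.504 ± 0.309 CPM in WT libraries, with a log2 fold change of 4.78. *Homer2* (ENSMUSG00000025813, GRCm38 chr7:81600481-81707527, minus strand) had 660, 749 and 583 reads in KO libraries, against 41, 55 and 43 in WT libraries, or 31.7 ± 2.08 CPM in KO libraries and 2.03 ± 0.342 CPM in WT libraries, with a log2 fold change of 3.96. *Homer2* had the smallest difference of the 8 genes and also the least spread among KO libraries, 6.55% of their mean. About 91.5% of its KO reads were unique to the gene, against 98.3% or more for each of the other 7 genes.

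Of the surface proteins, *Flrt2* (ENSMUSG00000047414, GRCm38 chr12:95692226-95785215, plus strand), which binds UNC5 receptors and latrophilins, had 209, 280 and 270 reads in KO libraries, against 3, 8 and 0 in WT libraries. It averaged 12.2 ± 2.38 CPM in KO libraries and 0.160 ± 0.178 CPM in WT libraries, with a ratio of reads of 75.3 (95% interval 41.9 to 152). *Cdh13* (ENSMUSG00000031841, GRCm38 chr8:118283733-119324921, plus strand), the T-cadherin that is held in the membrane by a lipid anchor, had 333, 476 and 347 reads in KO libraries, against 12, 11 and 15 in WT libraries, or 18.4 ± 3.20 CPM in KO libraries and 0.556 ± 0.0981 CPM in WT libraries, with a log2 fold change of 5.04. Summed over libraries, its few WT reads were of another make-up than its KO reads, as given below. *Kirrel3* (ENSMUSG00000032036, GRCm38 chr9:34485894-35036716, plus strand), an immunoglobulin-type adhesion protein of synapses, had 1353, 1800 and 1359 reads in KO libraries, against 44, 63 and 25 in WT libraries, or 71.9 ± 9.93 CPM in KO libraries and 1.92 ± 0.829 CPM in WT libraries, with a log2 fold change of 5.22. Most of those reads lay in introns.

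**Figure D1:**
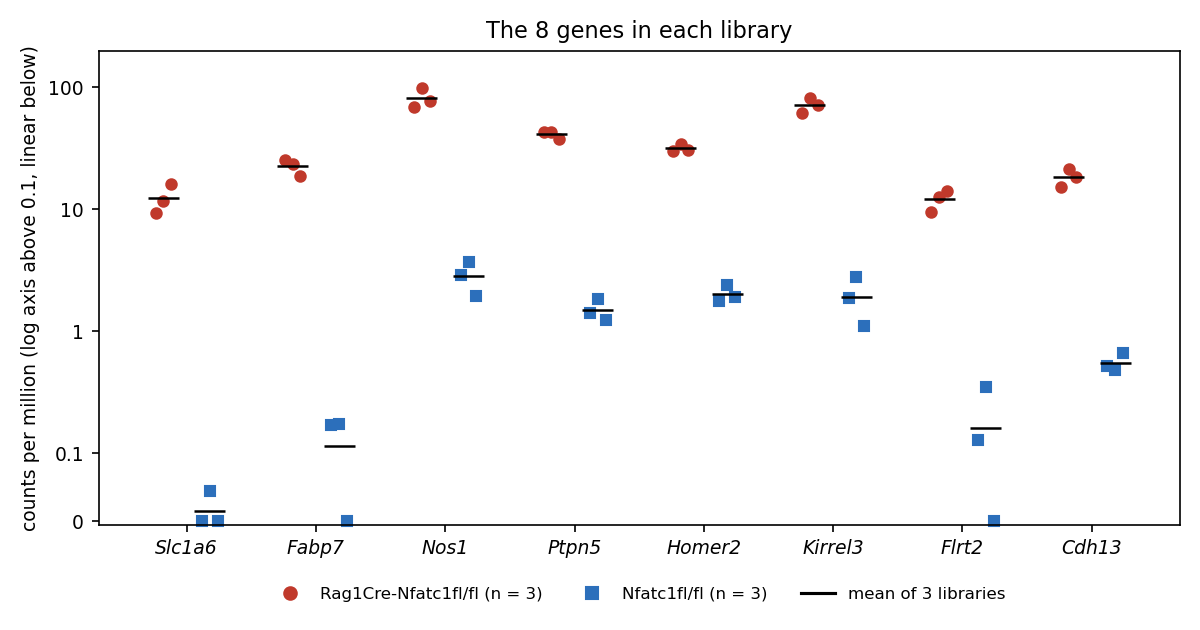
CPM of the 8 genes (y axis, logarithmic above 0.1 and linear below) in 3 KO libraries (red circles) and 3 WT libraries (blue squares), with the mean of each genotype as a line. KO libraries lie between 9.36 CPM (*Slc1a6*) and 99.7 CPM (*Nos1*), WT libraries between 0 and 3.74 CPM, and *Slc1a6*, *Fabp7* and *Flrt2* have at least 1 WT library at 0.

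In each of the 8 genes all KO libraries lay above all WT libraries, as they did in 23.3% of the 13185 tested genes. The 8 genes held 5751, 7219 and 5415 reads together in KO libraries, against 205, 269 and 155 in WT libraries. KO replicate 2 was the highest KO library in 5 of the genes, replicate 3 in 2 and replicate 1 in 1. KO replicate 3, the library with 293 CPM of macrophage and dendritic cell markers, had 5415 reads of the 8 genes, and the part of those cells in the values was not tested. By log2 fold change *Slc1a6* (9.25) ranked 1 and *Fabp7* (7.53) ranked 6 of all tested genes, *Flrt2* (6.20) ranked 23 and *Homer2* ranked 86, and a log2 fold change of 4 or more was seen in 0.637% of tested genes. The fitted values of *Slc1a6*, *Fabp7* and *Flrt2* depend on the small count added by the fit, since each had a WT library at 0. All 8 passed the filter on low counts. *Slc1a6*, *Fabp7* and *Flrt2* did so through KO libraries alone, since no WT library reached the filter's 0.459 CPM, while the other 5 genes reached it in all 3 WT libraries. In such bulk samples more cells with an RNA and more RNA per cell cannot be told apart.

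Levels of different genes were compared per exon length, as TPM, the exon reads per base of exon scaled to a sum of 1000000 in each library. *Fabp7* was the most abundant, with 53.3, 47.7 and 31.4 TPM in KO libraries, against 0.356, 0.386 and 0 TPM in WT libraries. It ranked 2705 among all genes by mean TPM in KO libraries and 13243 in WT libraries, and exceeded *Nos1* in every KO library. *Nos1* (17.6 ± 4.33 TPM in KO libraries, 0.679 ± 0.218 TPM in WT libraries), *Ptpn5* (17.0 ± 3.15 TPM in KO, 0.662 ± 0.173 TPM in WT) and *Slc1a6* (13.3 ± 2.07 TPM in KO, 0.0187 ± 0.0324 TPM in WT) followed, and neighbours in this order overlapped between KO libraries. *Homer2* came next at 6.04 ± 0.897 TPM in KO libraries and 0.429 ± 0.0796 TPM in WT libraries, below every KO value of *Slc1a6*. *Cdh13* (3.80 ± 0.766 TPM in KO), *Flrt2* (3.71 ± 0.471 TPM in KO) and *Kirrel3* (2.99 ± 0.505 TPM in KO) were the lowest and overlapped in this order. In WT libraries these 3 genes stood at 0.0668 ± 0.0287, 0.0561 ± 0.0635 and 0.126 ± 0.0615 TPM. The order therefore differs from that by CPM, in which *Kirrel3* came after *Nos1*.

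**Figure D2:**
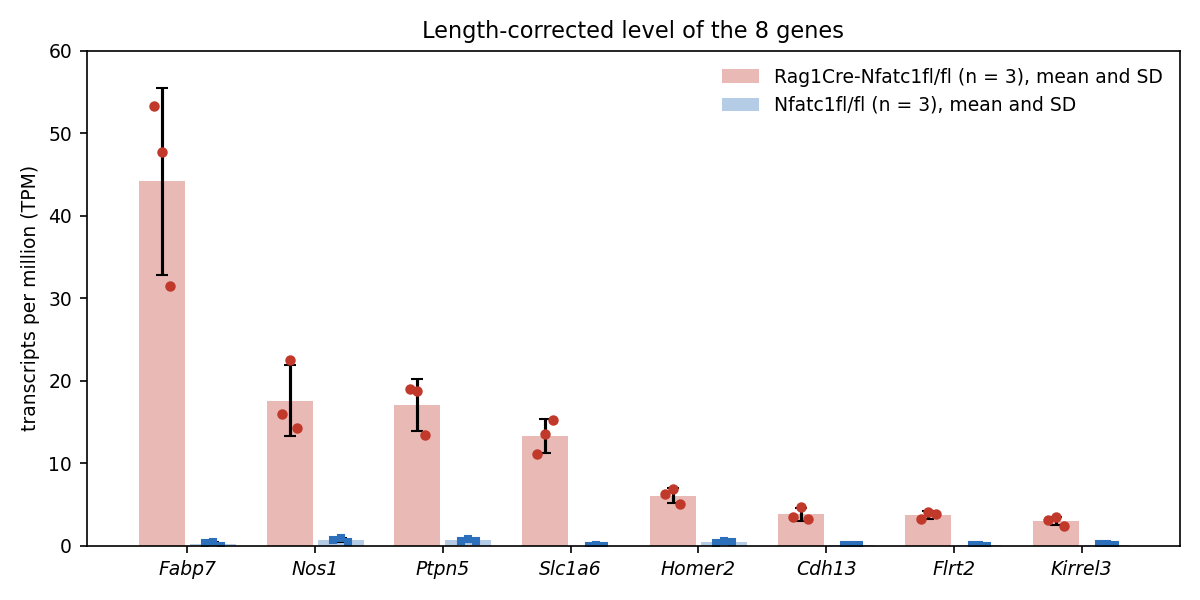
TPM of the 8 genes, in order of their mean in KO libraries, as the mean (bar) and SD (line) of 3 KO libraries (red) and 3 WT libraries (blue), with a point for each library. *Fabp7* averages 44.2 TPM and *Kirrel3* 2.99 TPM in KO libraries, and no WT library exceeds 0.898 TPM.

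The classes of reads, which were not used to choose the genes, separated *Kirrel3* from the other 7. Of its KO reads 88.9% lay in introns (95% interval 87.9 to 89.8, Clopper-Pearson, for counting error only), against a median of 1.58% over all tested genes, and 324 of the tested genes (2.46%) had a larger share. The share was 87.7%, 89.3% and 89.5% in the 3 KO libraries and 84.1% (76.7 to 89.9) in the summed WT libraries, so the intervals of the genotypes overlap. The other 7 genes had intron shares from 0.209% (*Fabp7*) to 3.72% (*Cdh13*) in KO libraries.

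On exon reads alone *Kirrel3* had 167, 192 and 143 reads in KO libraries, against 9, 9 and 3 in WT libraries, of which 89, 93 and 65 in KO libraries and 4, 1 and 2 in WT libraries crossed from exon to exon. That is 7.98 ± 0.658 exon CPM in KO libraries and 0.305 ± 0.149 exon CPM in WT libraries, and a log2 fold change of 4.67 in place of 5.22. Spliced *Kirrel3* RNA was thus counted in every library. Within the gene lies *Kirrel3os* on the other strand (GRCm38 chr9:34918233-34929509), with 38, 61 and 71 reads in KO libraries, against 0, 0 and 1 in WT libraries. The library kit does not mark strand, so reads of *Kirrel3* and of *Kirrel3os* cannot be told apart where they overlap. The genes that overlap *Slc1a6*, *Fabp7*, *Nos1*, *Ptpn5*, *Homer2*, *Flrt2* and *Cdh13* held at most 20 reads over the KO libraries, those of *Gm14377* within *Ptpn5*.

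In *Slc1a6* and *Fabp7* most exon reads crossed a splice junction, 74.5% (95% interval 71.3 to 77.6) and 78.1% (75.9 to 80.2) of them over the KO libraries, against a median of 47.6% over all tested genes. *Nos1* (44.0%), *Ptpn5* (48.5%), *Homer2* (41.3%) and *Kirrel3* (49.2%) lay near that median. *Cdh13* had 12.9% (11.0 to 15.0) and *Flrt2* 4.41% (3.05 to 6.13), and 7.54% of tested genes had a lower share than *Flrt2*, whose 4 annotated exons span 7721 bases. In WT libraries *Cdh13* had no junction read among 19 exon reads, which allows a share of up to 17.6%. Summed over libraries, 43 of its 1156 KO reads were intronic, against 19 of its 38 WT reads (95% interval of the WT share 33.4% to 66.6%, for counting error only). The WT libraries differed, with 8 of 12, 2 of 11 and 9 of 15 reads intronic in replicates 1, 2 and 3. Of its summed WT reads 84.2% were unique to the gene, against 98.3% of its KO reads. The part of reads that are not unique was not tested. Counted on exon reads alone, *Cdh13* had 324, 455 and 334 reads in KO libraries, against 4, 9 and 6 in WT libraries, and its log2 fold change was 5.96 in place of 5.04.

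**Figure D3:**
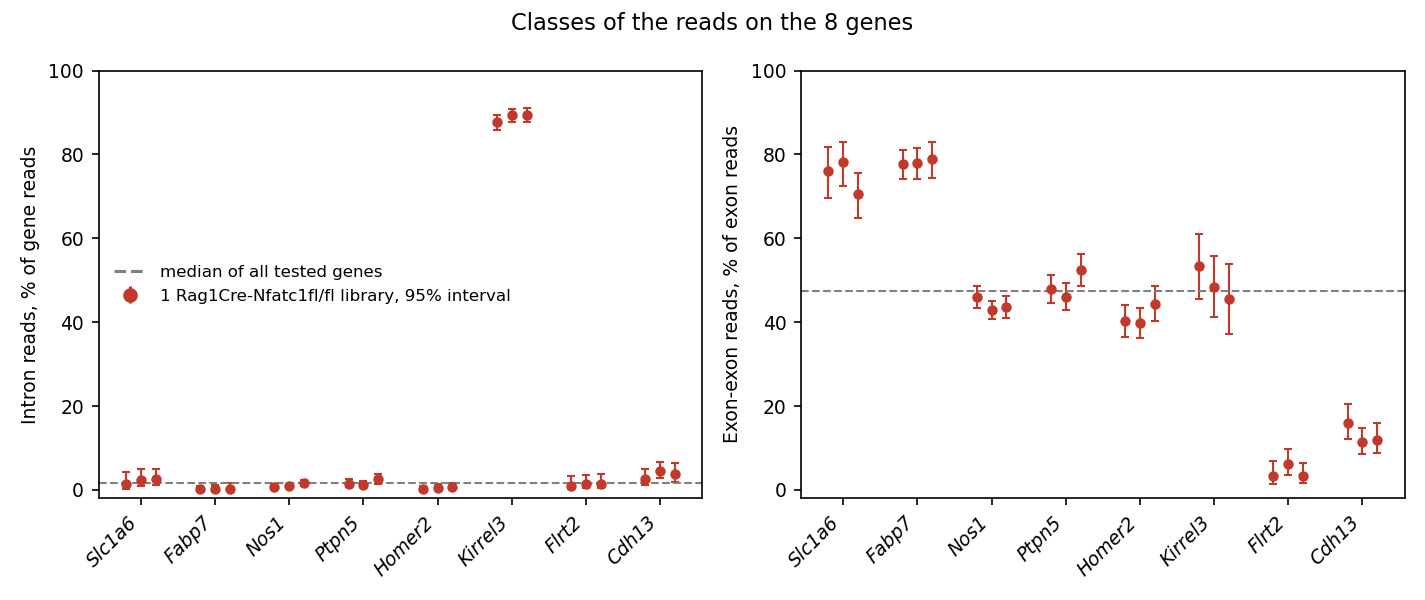
Share of intron reads among gene reads (left) and of reads across an exon-exon junction among exon reads (right), in percent, in each of 3 KO libraries with exact 95% intervals; the dashed line is the median over tested genes. *Kirrel3* stands near 89% intron reads, and *Flrt2* and *Cdh13* lie lowest in junction reads.

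The nearest tested genes on the 2 sides of each gene were examined next. Of these 16 neighbours 3 were higher and 1 lower in KO libraries, and 12 did not pass (edgeR's quasi-likelihood test, Benjamini-Hochberg adjustment over all tested genes, adjusted p under 0.01 and log2 fold change over 0.5 in size). Over all tested genes 6.47% were higher and 3.51% lower. The median log2 fold change of the neighbours was 0.09, against -0.0069 over all tested genes. The neighbours of *Fabp7* on both sides were higher. *Smpdl3a*, a phosphodiesterase gene 5.89 kb away, had 7327, 8893 and 8377 reads in KO libraries, against 1999, 2297 and 2053 in WT libraries (log2 fold change 2.09, SE 0.12, edgeR adjusted p = 5.08e-05), and passed under all 15 alternatives.

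*Pkib*, an inhibitor of protein kinase A 43.8 kb on the other side of *Fabp7*, had 82, 77 and 104 reads in KO libraries, against 37, 28 and 31 in WT libraries (log2 fold change 1.59, SE 0.25, edgeR adjusted p = 0.00402). Leaving out any of the WT libraries ended its call (highest adjusted p = 0.0227). Beside *Slc1a6* lay *Gm47459*, 148 kb away, which was higher (log2 fold change 1.41, edgeR adjusted p = 0.00499, and 0.0135 with the replicate number as a block), and *2610008E11Rik*, 250 kb away, which was lower (log2 fold change -1.10, edgeR adjusted p = 0.00500). Without any of the WT libraries neither passed (highest adjusted p 0.0272 and 0.0276), and *Gm47459* did not pass without KO replicate 2 nor *2610008E11Rik* without KO replicate 1. No neighbour of the other 6 genes passed. *Ksr2_1*, 6.03 kb from *Nos1*, had 123, 59 and 37 reads in KO libraries, against 36, 29 and 12 in WT libraries (log2 fold change 1.61, edgeR adjusted p = 0.0514), and passed with DESeq2 (adjusted p = 0.00950) and without KO replicate 3 (edgeR adjusted p = 0.00982). Nearest to 0 were the neighbours of *Homer2*, *Whamm* (log2 fold change 0.0023) and *Fam103a1* (0.07), and of *Flrt2*, *Sel1l* (-0.13) and *Galc* (-0.20). With them were *Zdhhc13* (0.07) on 1 side of *Ptpn5*, *Gm32171* (-0.03) of *Kirrel3* and *Mphosph6* (0.11) of *Cdh13*. *Whamm* and *Fam103a1* lay 3.6 and 55.4 kb away. *Sel1l* lay 3843 kb, *Galc* 2417 kb, *Zdhhc13* 1655 kb, *Gm32171* 1223 kb and *Mphosph6* 482 kb away. These are the nearest tested genes and need not adjoin the gene. Further from 0 lay *Tmem86a* beside *Ptpn5* (0.91, edgeR adjusted p = 0.108, with 412 reads in KO replicate 3 against 185 and 191 in the other KO libraries), *St3gal4* beside *Kirrel3* (0.47, edgeR adjusted p = 0.0139), *Fbxo21* beside *Nos1* (-0.40, edgeR adjusted p = 0.0328) and *Hsbp1* beside *Cdh13* (0.36, edgeR adjusted p = 0.0260).

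**Figure D4:**
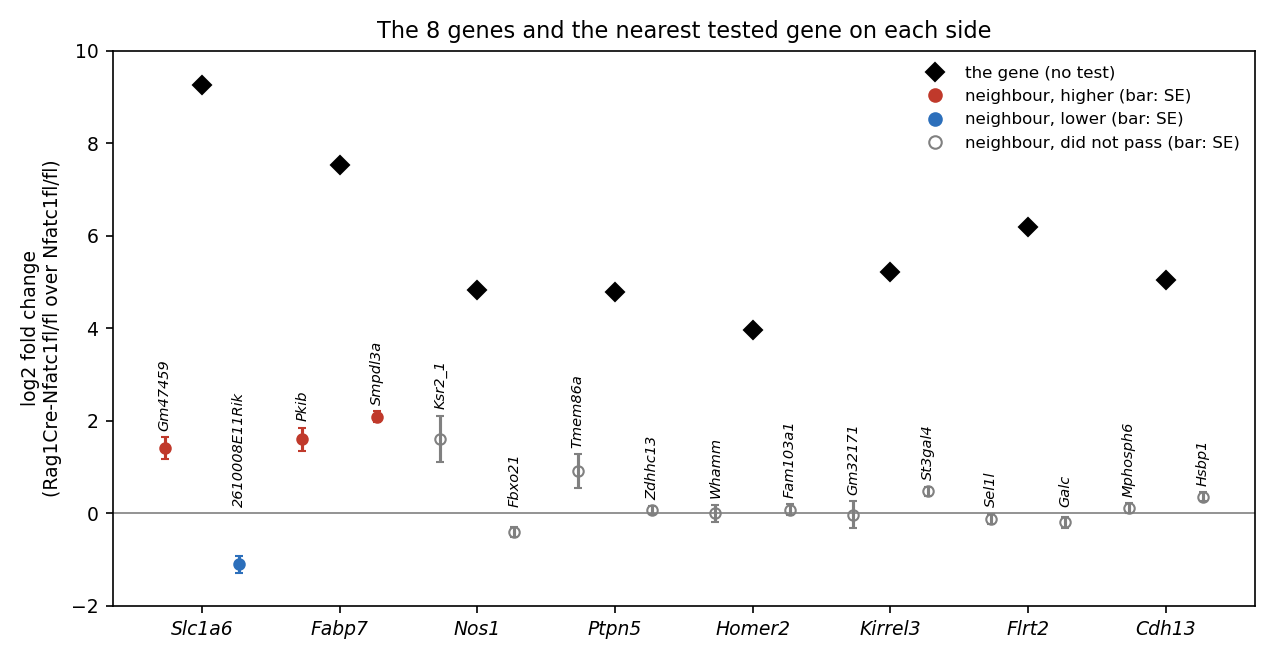
Log2 fold change, KO over WT, of the 8 genes (black diamonds, no test) and of the nearest tested gene on each side (circles with the SE), filled red where higher, filled blue where lower and open where the test was not passed. The neighbours lie between -1.10 and 2.09, below each of the 8 genes.

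The relatives of the 8 genes, 34 genes of the same families, mostly did not pass the test. Of these 14 were tested, and 2 were higher, 1 was lower and 11 did not pass, with a median log2 fold change of 0.60, while 16 had too few reads to be tested and 4 had no read in any library. That is 14.3% higher and 7.14% lower, against 6.47% and 3.51% of all tested genes. In the glutamate transporter family *Slc1a5*, a carrier of neutral amino acids, had 136 ± 21.1 CPM in KO libraries and 96.6 ± 15.2 CPM in WT libraries (log2 fold change 0.49, edgeR adjusted p = 0.0515). *Slc1a3*, the glial glutamate transporter, had 28, 10 and 102 reads in KO libraries, against 20, 3 and 5 in WT libraries, highest in the KO library rich in macrophage markers. *Fabp5* (35.4 ± 7.34 CPM in KO, 27.6 ± 0.494 CPM in WT, log2 fold change 0.36, edgeR adjusted p = 0.111) was the only other fatty acid binding protein above the filter. The other nitric oxide synthases were near 0, *Nos2* with 0, 0 and 1 reads in KO libraries and 0 in each WT library, and *Nos3* with 0, 2 and 1 reads in KO libraries, against 5, 5 and 2 in WT libraries.

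Next to *Ptpn5*, its haematopoietic relative *Ptpn7* was expressed in both genotypes (247 ± 82.5 CPM in KO, 218 ± 30.9 CPM in WT, log2 fold change 0.18, edgeR adjusted p = 0.622). *Ptprr*, the third of these kinase-directed phosphatases, fell under the filter with 11, 10 and 15 reads in KO libraries, against 0, 1 and 1 in WT libraries. It passed when no filter was applied (edgeR adjusted p = 0.00386). Without KO replicate 2 or any 1 of the WT libraries it entered the test and did not pass (highest edgeR adjusted p = 0.0258). With so few WT reads only a rise could pass. In the Homer family the members differed in direction. *Homer3* fell to 19.0 ± 2.99 CPM in KO libraries, against 34.3 ± 0.460 CPM in WT libraries (log2 fold change -0.85, SE 0.12, edgeR adjusted p = 0.00258), with no overlap, although without any of the WT libraries it did not pass (highest adjusted p = 0.0167). *Homer1* had 8.82 ± 1.06 CPM in KO libraries and 8.26 ± 1.13 CPM in WT libraries (log2 fold change 0.09, edgeR adjusted p = 0.705).

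Among the adhesion genes, *Cdh3*, the P-cadherin, rose to 290, 333 and 151 reads in KO libraries, against 45, 41 and 32 in WT libraries (log2 fold change 2.82, SE 0.28, edgeR adjusted p = 4.67e-04), and did not pass on either TPM scale (limma adjusted p 0.0118 with a pseudocount of 1 and 0.0107 with 0.1). *Cdh2*, the N-cadherin of neurons, rose to 77, 122 and 44 reads in KO libraries, against 1, 6 and 0 in WT libraries (log2 fold change 5.14, edgeR adjusted p = 0.00221), and did not pass without WT replicate 1 (adjusted p = 0.0166). No WT library of *Cdh2* reached the filter's 0.459 CPM, so it entered the test through KO libraries alone, where only a rise can pass. *Cdh1*, the E-cadherin, had 262, 296 and 131 reads in KO libraries, against 119, 157 and 53 in WT libraries (log2 fold change 1.17, edgeR adjusted p = 0.0632, and 0.00446 with the replicate number as a block). Without KO replicate 3, *Cdh1* and *Slc1a5* passed too, giving 4 relatives higher and 1 lower. Of the closest relatives of *Kirrel3* and *Flrt2*, *Kirrel*, *Kirrel2*, *Flrt1* and *Flrt3* had at most 6 reads in any library, and *Nphs1*, the nephrin gene, had 8.32 CPM in KO libraries and 5.09 CPM in WT libraries (log2 fold change 0.70, edgeR adjusted p = 0.145).

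Partners of the 8 proteins, 34 genes of their substrates, receptors, ligands and helper enzymes, were counted next. Of 27 tested, 3 were higher, 1 was lower and 23 did not pass, with a median log2 fold change of -0.02. That is 11.1% higher and 3.70% lower, against 6.47% and 3.51% of all tested genes. The 2 UNC5 receptors that were tested, which bind FLRT proteins, were both higher. *Unc5b* had 63, 69 and 37 reads in KO libraries, against 1, 8 and 5 in WT libraries (log2 fold change 3.67, SE 0.51, edgeR adjusted p = 0.00225), and *Unc5a* had 70, 86 and 60 reads in KO libraries, against 21, 15 and 13 in WT libraries (log2 fold change 2.25, SE 0.26, edgeR adjusted p = 0.00101). *Unc5b* did not pass without KO replicate 2 or without WT replicate 3 (adjusted p 0.0113 and 0.0157), and *Unc5c* and *Unc5d* had at most 4 reads in any library. No WT library of *Unc5b* reached the filter's 0.459 CPM, so it entered the test through KO libraries alone, where only a rise can pass. The latrophilin genes *Adgrl1* and *Adgrl2* did not pass (edgeR adjusted p 0.295 and 0.172). With 1 library left out, their log2 fold changes were 0.13 to 0.48 and -0.87 to -0.45. *Adgrl3* had too few reads to be tested. *Rxra*, a nuclear receptor of lipid ligands, was higher at 107 ± 6.97 CPM in KO libraries, against 48.1 ± 4.46 CPM in WT libraries (log2 fold change 1.15, SE 0.10, edgeR adjusted p = 2.78e-04), and did not pass on either TPM scale (limma adjusted p 0.0144 with a pseudocount of 1 and 0.0161 with 0.1). *Fgfr1*, a fibroblast growth factor receptor, was lower at 5.70 ± 0.568 CPM in KO libraries, against 12.7 ± 1.198 CPM in WT libraries (log2 fold change -1.15, SE 0.14, edgeR adjusted p = 0.00127), and lost its call without WT replicate 1 (adjusted p = 0.01005).

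Substrates of STEP were expressed in both genotypes and did not pass. *Ptk2b*, the kinase PYK2, had a log2 fold change of -0.09 (260 CPM in KO, 276 CPM in WT) and *Fyn* of 0.06 (232 CPM in KO, 222 CPM in WT). *Gch1*, which makes the cofactor of nitric oxide synthases, had 16.2 CPM in KO libraries and 15.0 CPM in WT libraries, and *Dlg4*, whose product PSD-95 anchors NOS1 in neurons, 33.7 CPM in KO libraries and 32.0 CPM in WT libraries. The receptor of nitric oxide was scarce, with 0.531 CPM in KO libraries and 1.08 CPM in WT libraries for *Gucy1a1* (log2 fold change -1.02, edgeR adjusted p = 0.0494). *Gucy1a1* passed as lower on log2 of TPM plus 0.1 (limma adjusted p = 0.00919). The other subunit, *Gucy1b1*, had 1.81 CPM in KO libraries and 2.56 CPM in WT libraries (log2 fold change -0.50, edgeR adjusted p = 0.156). Of the Homer partners, the glutamate receptor *Grm5* had at most 2 reads in any library, while the calcium channel *Itpr1* had 1043, 1091 and 446 reads in KO libraries, against 660, 536 and 503 in WT libraries (log2 fold change 0.70, edgeR adjusted p = 0.0893, and 1.29e-04 without KO replicate 3). *Adipoq*, the gene of a ligand of T-cadherin, had 46, 33 and 45 reads in KO libraries, against 28, 17 and 19 in WT libraries (log2 fold change 1.09, edgeR adjusted p = 0.0389).

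Markers of neurons and glia were examined because the 8 genes are best known from those cells. Of 24 neuron markers, 10 had no read in any library, among them *Snap25*, *Nefl*, *Gap43*, *Gad1*, *Gad2*, *Th*, *Chat*, *Dcx* and *Prph*, and 5 were tested. *Map2*, a microtubule protein of dendrites, rose to 437, 611 and 236 reads in KO libraries, against 30, 41 and 25 in WT libraries (log2 fold change 3.84, SE 0.34, edgeR adjusted p = 2.89e-04), and did not pass on log2 of TPM plus 1 (limma adjusted p = 0.0153). *Camk2a*, a calcium-dependent kinase, fell to 19.0 ± 2.10 CPM in KO libraries, against 33.8 ± 1.34 CPM in WT libraries (log2 fold change -0.83, SE 0.11, edgeR adjusted p = 0.00150), and did not pass without WT replicate 1 or 3 (adjusted p 0.0113 and 0.0119). The other 3 tested, *Tubb3*, *Uchl1* and *Slc17a7*, did not pass (*Uchl1* log2 fold change -1.37, edgeR adjusted p = 0.0298, 0.00350 with DESeq2 and 5.94e-04 without KO replicate 3), and the median log2 fold change of the 5 was -0.15. The summed CPM of the 24 genes was 53.0, 57.1 and 45.2 in KO libraries and 48.9, 50.2 and 51.1 in WT libraries, so the genotypes overlapped.

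Of 18 glia markers, 7 had no read in any library, among them *Sox10*, *Olig1*, *Olig2*, *Mog* and *Pdgfra*, and 4 were tested. None passed with edgeR, DESeq2 or limma-voom, and 1 of the 4 had an unadjusted edgeR p under 0.05. *Mbp* had 207 ± 22.1 CPM in KO libraries and 279 ± 8.07 CPM in WT libraries (log2 fold change -0.44, edgeR adjusted p = 0.0172), and *Cnp* 207 ± 15.6 CPM in KO libraries and 215 ± 2.29 CPM in WT libraries (log2 fold change -0.05, edgeR adjusted p = 0.694). *Gfap*, the defining gene of astrocytes, had 2, 0 and 0 reads in KO libraries, against 0, 1 and 0 in WT libraries. The summed CPM of the 18 genes was 454, 442 and 380 in KO libraries and 499.7, 521 and 505 in WT libraries, lower in every KO library. Most of each sum came from *Mbp* and *Cnp*, so the sums say little about the other glia markers and do not measure glia. Members of both lists therefore ranged from no read to 6539 reads (*Mbp*) in a library, and the part of neural cells in the values of the 8 genes was not tested.

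**Figure D5:**
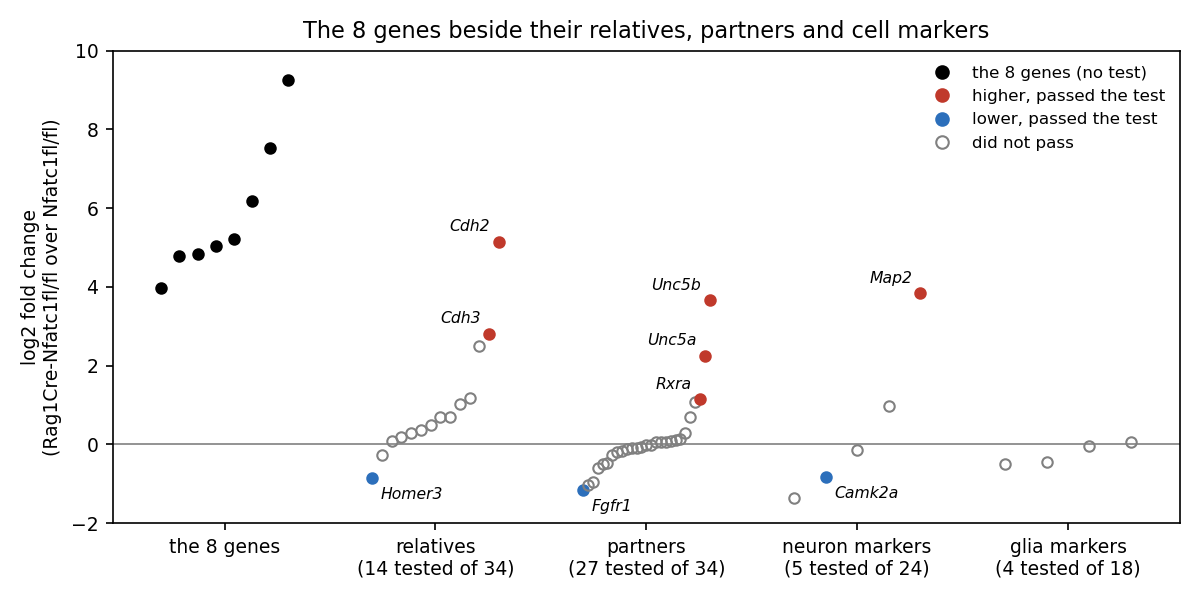
Log2 fold change, KO over WT, of the 8 genes (black, no test) and of tested relatives, partners, neuron markers and glia markers, each ordered by its value; red passed the test as higher, blue passed as lower, open circles did not pass. Names are given for those that passed, of which *Cdh2* has the highest value, 5.14.

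A list of 12 γδ T cell markers, which includes genes not limited to γδ cells such as *Lck* and *Ptprc*, was compared between the genotypes, and all were tested. This comparison does not check the identity of the cells. None was higher with edgeR (1 of 12 at an unadjusted p under 0.05, 1 with DESeq2 and 0 with limma-voom), 3 were lower and 9 did not pass. *Trdc*, the constant region of the δ chain, stood at 115 ± 18.5 CPM in KO libraries and 199.9 ± 6.44 CPM in WT libraries (log2 fold change -0.80, edgeR adjusted p = 0.00352), *Tcrg-C1* at 209 ± 13.6 CPM in KO libraries and 328 ± 14.4 CPM in WT libraries (log2 fold change -0.65, edgeR adjusted p = 0.00183), and *Sox13*, a factor of immature γδ cells, at 377 ± 36.3 CPM in KO libraries and 651 ± 23.6 CPM in WT libraries (log2 fold change -0.79, edgeR adjusted p = 0.00133). *Trdc* and *Tcrg-C1* did not pass without KO replicate 2 or any 1 of the WT libraries, nor *Sox13* without WT replicate 1 or 2 (highest adjusted p 0.0231, 0.0159 and 0.0109). The reads of *Trdc* and *Tcrg-C1* were not classed as exonic, so neither gene could be compared on exon reads or TPM. *Lck* (log2 fold change 0.09) and *Ptprc* (-0.13) did not pass.

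Markers of other cells that a thymus sample can hold were summed for comparison, and their part in the values of the 8 genes was not tested. Thymic epithelium markers summed to 57.9, 53.9 and 46.7 CPM in KO libraries and 71.8, 65.6 and 64.1 CPM in WT libraries, with *Foxn1*, *Aire* and *Krt14* at 5 reads or fewer in all KO or all WT libraries together. Fibroblast and endothelium markers summed to 156, 147 and 102 CPM in KO libraries and 226, 195 and 213 CPM in WT libraries, with *Lum* at 0 and *Dcn*, *Kdr* and *Tek* at 3 reads or fewer in either genotype. B cell markers summed to 17.9, 15.2 and 22.7 CPM in KO libraries and 29.3, 28.9 and 26.0 CPM in WT libraries. These 3 sums were lower in every KO library. The median log2 fold change of their tested members was 0.15 for 6 thymic epithelium markers and 0.34 for 3 B cell markers. It was -0.53 for 3 fibroblast and endothelium markers. Such sums weigh the most abundant genes most and do not measure the cells. The sum of macrophage and dendritic cell markers, given above, was highest in KO replicate 3, and the median log2 fold change of its 11 tested members was 1.58. Mast cell and basophil markers summed to 243, 206 and 201 CPM in KO libraries and 231, 245 and 233 CPM in WT libraries, with *Fcer1a*, *Mcpt4*, *Tpsb2* and *Tpsab1* at 0. αβ thymocyte markers summed to 1384, 1159.8 and 1871 CPM in KO libraries and 1547, 1506 and 1495 CPM in WT libraries.

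Named members of these lists went in both directions. Of 11 tested macrophage and dendritic cell markers none passed with edgeR, DESeq2 or limma-voom. Of these 3 had an unadjusted edgeR p under 0.05, and *C1qa* (log2 fold change 1.69, edgeR adjusted p = 0.145) and *C1qc* (1.68, edgeR adjusted p = 0.145) were the most abundant. *Epcam*, an epithelial adhesion gene also made by some T cells, was lower (log2 fold change -1.202, edgeR adjusted p = 3.36e-04), as were *Pdgfrb* (-1.16, edgeR adjusted p = 0.00154), *Cd79b* (-0.72, edgeR adjusted p = 0.00654, and 0.0131 with the replicate number as a block) and *Cpa3* (-0.89, edgeR adjusted p = 0.00179). *Cd4* was higher (log2 fold change 1.34, edgeR adjusted p = 3.53e-04), as was *Hdc* on the mast cell and basophil list (5.68, edgeR adjusted p = 1.02e-05). On that list *Il1rl1* had 38, 46 and 19 reads in KO libraries, against 14, 12 and 2 in WT libraries (log2 fold change 1.98, edgeR adjusted p = 0.0389, and 0.00886 with DESeq2). *Pdgfrb* did not pass without WT replicate 1, *Cpa3* without any 1 of the WT libraries, and *Cd79b* without any library but KO replicate 3 (highest adjusted p 0.0111, 0.0123 and 0.0357). The most abundant members that did not pass were *Ly75* (log2 fold change -0.24), *Pecam1* (-0.53), *Blnk* (0.34), *Kit* (-0.37), *Trbc1* (-0.25) and *Trbc2* (-0.05). *Col1a1*, tested beside *Pdgfrb* and *Pecam1*, went the other way and did not pass (edgeR adjusted p = 0.0355). Its log2 fold change was 0.88 to 1.56 with 1 library left out. It passed as higher with DESeq2 (adjusted p = 0.00901) and without KO replicate 3 (edgeR adjusted p = 0.00378).

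Across the 6 libraries the log2 CPM of each of the 8 genes followed the mean of the other 7 with Pearson's r of 0.987 (*Cdh13*) to 0.999 (*Nos1*). The 6 libraries fall into 2 genotypes by which the genes were chosen, so r mainly restates that split and is given as a description. The 6 named genes most like the mean of the 8, out of 11020 compared, were *Trim36* (r = 0.9990), *Hdc* (0.9990), *Adh1* (0.9986), *Aqp9* (0.9985), *Icos* (0.9985) and *Mpp2* (0.9985), and 6.91% of those compared had r over 0.95. *Hdc*, the histidine decarboxylase, which is also on the mast cell and basophil list, had 1734, 1677 and 1327 reads in KO libraries, against 35, 43 and 22 in WT libraries. *Mpp2*, a scaffold protein of the membrane-associated guanylate kinase family, had 288, 297 and 236 reads in KO libraries, against 23, 29 and 22 in WT libraries, and *Trim36*, a ubiquitin ligase gene, had 652, 709 and 573 reads in KO libraries, against 123, 138 and 116 in WT libraries. *Icos*, a costimulatory receptor of T cells, reached 578 ± 49.1 CPM in KO libraries, against 48.6 ± 8.11 CPM in WT libraries. *Adh1*, an alcohol dehydrogenase, reached 58.9 ± 9.85 CPM in KO libraries, against 1.52 ± 0.324 CPM in WT libraries, and *Aqp9*, a water and glycerol channel, reached 25.6 ± 1.56 CPM in KO libraries, against 0.846 ± 0.117 CPM in WT libraries.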

How the data were processed

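RNA-seq libraries of γδ thymocytes, 3 KO and 3 WT, were grouped by the labels. The authors state that trimmed reads were aligned to GRCm38 by STAR, that featureCounts did the counting and that DESeq2 was the test. The deposited tables hold whole-number read counts per gene, in all and for exons, introns and exon-exon junctions, each also for unique reads. They are not laid out as featureCounts writes them, and the program used, with its handling of reads that fit several genes, was not given in the sources used here. Unique reads made up 94.1% to 95.4% of gene reads. The kit does not mark strand, so overlapping genes share reads. TPM was recomputed from the deposited exon counts and exon lengths.

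The 8 genes and all gene lists were chosen with earlier results of these data known. Total gene counts of 6 libraries were fitted with edgeR 4.0.16 in R 4.3.3 (filterByExpr, TMM, glmQLFit, glmQLFTest, genotype as the only term), and 13185 genes were tested with Benjamini-Hochberg adjustment. Changed genes had an adjusted p under 0.01 and a log2 fold change over 0.5 in size, thresholds taken from the study, and CPM values use TMM-scaled library sizes. Of these genes 853 were higher and 463 lower. The fit was tested beforehand on simulated counts.

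Genes named in the text are the 8 genes, their neighbours, up to 4 changed genes and the 2 most abundant tested genes of each list, and the 6 genes most like the 8 (predicted genes left out, mean of at least 1 CPM). Other list members and *Kirrel3os* were named after their values were seen. A few genes of the lists that this rule or the text would name are counted but not reported here. Intervals are exact 95% intervals. Same-numbered KO and WT libraries deviated together (correlation 0.223, 0.244 and 0.172 for numbers 1, 2 and 3, against -0.182 to -0.0316 otherwise). Deviations were taken from the mean of each genotype, which by itself pulls the other correlations below 0 when these are above it. The numbers may therefore pair the samples. The main fit does not use such a pairing, and a fit with the replicate block is given where it changes a call. Alternatives were RLE factors, no filter, DESeq2 1.42.0, limma-voom (limma 3.58.1), each library left out, the replicate block, unique reads, exon reads, and log2 of TPM plus 1 or 0.1 with limma. Upstream sequences came from RefSeq (GRCm38.p6) and were matched by symbol. Plots were made in Python 3.11.15 (matplotlib 3.10.9).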

Additional observations from a re-analysis of the deposited data

How the results depend on the processing

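The 8 genes were chosen for their rise in these same libraries, so a steady sign under the alternatives is a description and not support. Their log2 fold changes stayed above 0 under all 15 alternatives, the smallest being 1.82 (*Kirrel3*, log2 of TPM plus 1, a scale that understates low genes). That of *Slc1a6* was 3.80 on log2 of TPM plus 1, 6.84 with a pseudocount of 0.1, 8.57 with limma-voom and 11.07 without WT replicate 2, the library with its only WT read, and that of *Flrt2* was 7.42 without that library. Without any 1 library the count of genes higher in KO lay between 380 and 1131 and that of genes lower between 100 and 665. Relatives changed numbered 1 to 5, partners 3 to 5, neuron markers 1 to 3 and neighbours 1 to 5. With limma on log2 of TPM plus 1, 352 genes were higher, 172 lower, and 1 relative, 2 partners, 0 neuron markers and 1 neighbour passed. With a pseudocount of 0.1, 351 genes were higher, 147 lower, and 1 neuron marker and 2 neighbours passed. On at least 1 of these scales *Cdh2*, *Cdh3*, *Rxra*, *Unc5b*, *Fgfr1*, *Map2*, *Camk2a*, *Sox13*, *Pdgfrb*, *Cpa3*, *Pkib*, *Gm47459* and *2610008E11Rik* lost their calls. *Trdc* and *Tcrg-C1* lost theirs on both scales, with a log2 fold change of 0, and were absent from the fit on exon reads. Their calls rest on reads not classed as exonic. DESeq2 called 1260 genes higher and 754 lower. No glia marker passed under any alternative. The cause of these differences was not tested.

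With the replicate block 778 genes were higher and 393 lower, with 4 relatives, 4 partners, 2 neuron markers and 3 neighbours changed. Among the genes of all lists and the neighbours it changed the calls of *Cdh1*, *Gm47459*, *Cd79b* and *Arpp21* and no other. The 3 libraries per genotype limit the precision, and for *Slc1a6*, *Fabp7* and *Flrt2* the depth allows few or no WT reads, so their fold changes are imprecise.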
